A study of Mus musculus with 6 samples.

Results

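The 36 collagen genes described here are all the collagen chain genes on a fixed list outside the cartilage types II, IX, X, XI and XXVII. They were matched by symbol to the gene IDs of the count table, and all 36 were found among its 55487 gene IDs. RNA-Seq was run on rib cages of mouse embryos at 16.5 dpc, with 3 control libraries (embryos E420, E434 and E435) and 3 mutant libraries (E423, E433 and E440). The mutants were Col2-cre;Foxc1-/-;Foxc2-/- embryos, in which a Cre recombinase driven by a Col2 promoter deleted the floxed alleles of both forkhead factors in chondrocyte progenitors and their descendants. The controls are labelled wild type. The study describes the control embryos of its stained skeletons as lacking the Col2-cre transgene, and its RNA-Seq methods do not give the control genotype. All embryos came from crosses of homozygous floxed females with Col2-cre males written as carrying 1 deleted allele of each gene, on a mixed C57B6 and Black Swiss background. By that cross, each control had at least 1 floxed allele of each gene from its mother. Whether its other allele was wild type, floxed or deleted is not given. The rib cage was cleaned of connective tissue and taken whole, so each value is an average over cartilage, forming bone and any other cells left on it. In such samples, fewer cells of a type and less RNA per cell cannot be told apart.

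Collagens are secreted or membrane-bound proteins whose chains wind around each other in a triple helix, which needs a glycine at each repeat of its amino acid triplets. Fibrillar chains (types I, III, V and XXIV here) build the fibers of bone, tendon and skin. Network-forming chains (types IV, VII, VIII, XV and XVIII are grouped with them here) lie in basement membranes and vessel walls. FACIT collagens coat fibers, type VI forms beaded filaments around cells, and the transmembrane types sit in the cell surface. In a rib, type II collagen fills the cartilage model, and type I takes its place as bone forms on it.

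The glycine repeat can be read in the genes themselves. In the longest annotated coding sequence of each gene (GENCODE vM21, GRCm38), the fibrillar chains held an unbroken run of 216 to 344 triplets that open with a glycine codon (GGN). The longest such run had 30 to 75 triplets in the basement membrane and vessel-wall group, 32 to 113 in the FACIT group, 28 to 87 in the beaded-filament group and 40 to 55 in the transmembrane group. Within the fibrillar group, Col24a1 was the exception with 216 triplets, while the other chains had 337 to 344. The type IV chains broke their repeat into 22 to 27 runs of at least 5 triplets, against 2 or 3 in the fibrillar chains. Many fibrillar exons are 54 bases long, which is 6 triplets. There were 21 of them in Col1a1 and 33 in Col24a1, but 1 to 3 in each type IV chain. One such coding exon is shown for each of the 7 genes on which the comparison turns most, 5′ to 3′ on the coding strand of GRCm38, with the GG of the glycine codon that opens each triplet in capitals (a glycine codon elsewhere in a triplet is left in lower case).
Col1a1, exon 8, chr11:94939904-94939957, + strand: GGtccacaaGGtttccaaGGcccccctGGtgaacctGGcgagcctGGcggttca
Col1a2, exon 8, chr6:4515481-4515534, + strand: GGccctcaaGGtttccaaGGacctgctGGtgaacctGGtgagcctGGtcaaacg
Col3a1, exon 6, chr1:45325360-45325413, + strand: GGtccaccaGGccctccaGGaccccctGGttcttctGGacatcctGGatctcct
Col5a2, exon 10, chr1:45422386-45422439, - strand: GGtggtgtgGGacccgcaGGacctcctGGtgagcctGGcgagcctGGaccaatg
Col5a3, exon 15, chr9:20801068-20801121, - strand: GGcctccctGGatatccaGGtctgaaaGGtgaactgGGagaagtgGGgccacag
Col22a1, exon 46, chr15:71857251-71857304, - strand: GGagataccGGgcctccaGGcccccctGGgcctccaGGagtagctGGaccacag
Col24a1, exon 7, chr3:145328731-145328784, + strand: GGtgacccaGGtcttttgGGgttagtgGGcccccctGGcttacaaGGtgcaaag
The type VIII genes Col8a1 and Col8a2 have no 54-base coding exon and carry their whole coding sequence on 2 exons.

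The windows around 3 transcription starts are shown because Col24a1 is the gene with the smallest p-value of the group, and because Col4a1 and Col4a2 lie head to head and varied together over the libraries. Each window runs from 250 bases before to 50 bases after the start (RefSeq, GRCm38.p6), 5′ to 3′ on the gene's own strand. The letters searched on both strands were TGTTTA, the core of forkhead sites, and its longer form TGTTTAC, then TGTGGT for RUNX factors, TATAAA for the TATA box, CCAAT for the box of that name, GGGCGG for the GC box and TGACGTCA for the cyclic AMP response element. Matches are in capitals.
Col24a1, chr3:145292222-145292521, + strand: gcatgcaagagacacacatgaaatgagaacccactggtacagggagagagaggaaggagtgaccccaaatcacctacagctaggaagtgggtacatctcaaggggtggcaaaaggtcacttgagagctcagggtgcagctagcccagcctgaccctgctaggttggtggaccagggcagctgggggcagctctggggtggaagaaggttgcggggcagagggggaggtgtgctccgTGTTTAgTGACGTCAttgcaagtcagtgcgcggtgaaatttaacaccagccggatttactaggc
Col4a1, chr8:11312777-11313076, - strand: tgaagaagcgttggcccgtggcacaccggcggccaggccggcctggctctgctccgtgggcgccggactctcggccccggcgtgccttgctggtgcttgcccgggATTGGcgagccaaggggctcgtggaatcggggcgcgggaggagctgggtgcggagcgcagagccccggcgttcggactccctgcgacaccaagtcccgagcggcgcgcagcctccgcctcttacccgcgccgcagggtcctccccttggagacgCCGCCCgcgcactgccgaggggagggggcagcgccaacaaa
Col4a2, chr8:11312555-11312854, + strand: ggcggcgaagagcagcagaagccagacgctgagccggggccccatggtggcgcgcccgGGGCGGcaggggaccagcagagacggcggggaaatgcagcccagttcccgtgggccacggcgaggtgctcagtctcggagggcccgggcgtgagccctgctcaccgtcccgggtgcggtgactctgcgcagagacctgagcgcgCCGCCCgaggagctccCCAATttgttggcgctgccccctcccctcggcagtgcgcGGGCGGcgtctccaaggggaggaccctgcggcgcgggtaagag
The Col24a1 window held TGTTTA and, 1 base further on, TGACGTCA. TGACGTCA occurred in 1.79% of the 32851 windows of that length and in no other window of the group, of which 29 genes had at least 1. TGTTTA occurred in 13.4% of all windows and in those of 5 of the collagen genes (Col3a1, Col6a1, Col6a4, Col13a1 and Col24a1), and TGTTTAC, which contains it, in 3.65% of all windows and in that of Col6a1. Both type IV windows held CCAAT (37.4% of all windows) and GGGCGG (35.7%), and they overlapped each other by 78 bases. TGTGGT occurred in 16.8% of all windows and in those of Col8a1, Col17a1 and Col18a1, and TATAAA in 13.6% and in those of Col3a1, Col13a1 and Col17a1. A match is a description of the letters only, and no binding was measured.

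Counts per library ran from 37853988 to 47794799. The unit below is CPM, counts scaled to library size per 1000000 counts, after scaling of the libraries by the TMM method, and values are given in the order E420, E434, E435 for controls and E423, E433, E440 for mutants. The targeted genes were checked first. Foxc1 had 23.1, 36.9 and 24.2 CPM in controls against 3.56, 9.60 and 3.51 CPM in mutants, and Foxc2 had 1.99, 4.83 and 3.22 against 0.649, 1.14 and 0.737 CPM, so neither overlapped between the groups. The libraries did not vary evenly. Control E434 and mutant E433 were rich in cartilage RNA, with summed levels of the 10 chondrocyte markers of 3792 and 1533 CPM, against 252 to 253 CPM in the other controls and 100 to 104 CPM in the other mutants. The 9 keratinocyte markers summed to 24227 and 23994 CPM in mutants E423 and E440 and to 20.5 CPM in control E434. All 7 adipocyte markers were higher in each mutant, with sums of 138 to 150 CPM in controls against 212 to 650 CPM in mutants (lowest in E433). Of these, Lep was at 0 CPM in each control. The 6 macrophage markers summed to 221 to 236 against 192 to 209.6 CPM. The 6 hepatocyte markers summed to 586 CPM in E433 and to 29.2 to 46.0 CPM elsewhere. The part of these cells in the collagen levels was not tested. Controls E420 and E435 were close to each other (2 of the 36 collagen genes differed by more than 1.5-fold), as were mutants E423 and E440 (also 2 of 36), while other pairs within a group differed by that much in 13 to 21 of the 36. The close pairs still differed by more than sampling noise, at 6.72 and 2.52 per gene on a chi-square scale where noise alone gives about 1, and they were kept as separate samples. Each comparison below is therefore given with all 6 libraries and, where it matters, without E434 and E433.

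**Figure D1:**
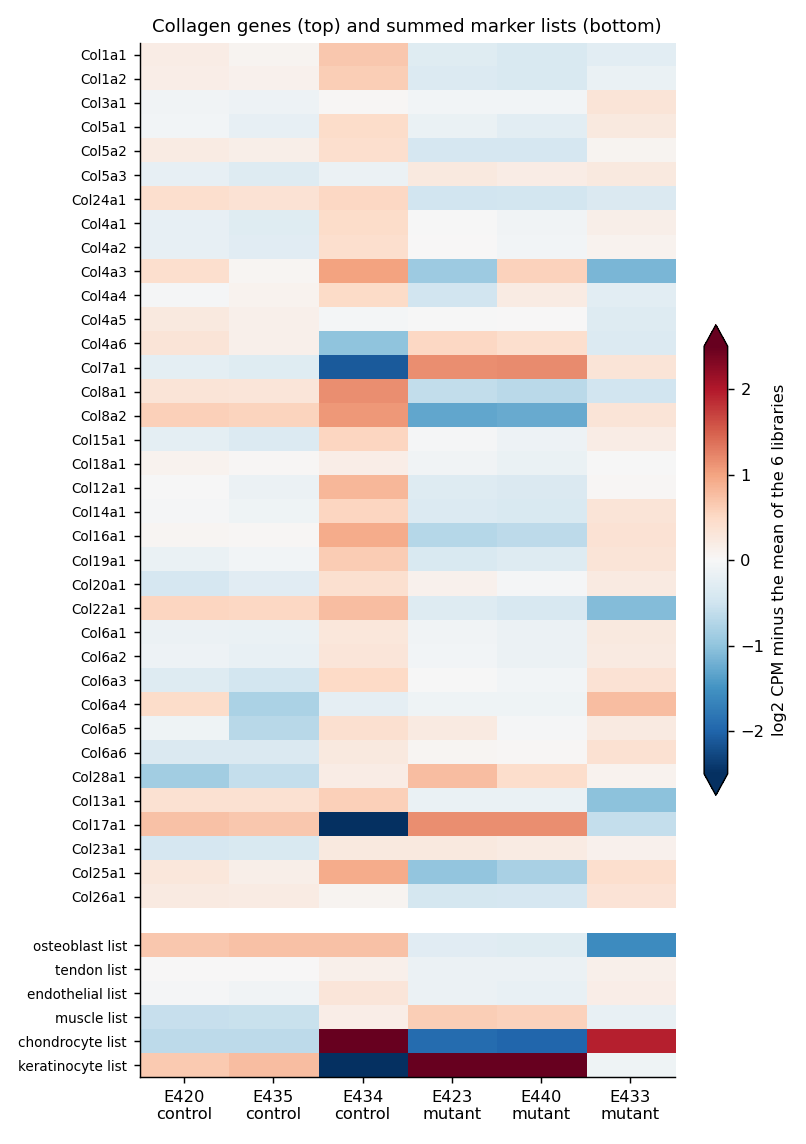
Level of each collagen gene (rows, top) and summed level of 6 marker lists (bottom) in the 6 libraries, as log2 CPM minus the mean of the 6. The close pairs E420 and E435 and E423 and E440 look alike. E434 is the highest control for 30 of the 36 genes (37.8% of all genes), and E433 the highest mutant for 24 (41.5% of all genes). The chondrocyte and keratinocyte lists separate E434 and E433 from the rest of their groups.

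Of the 36 collagen genes, 1 was past the test on its adjusted p-value, and the directions were mixed. By edgeR's quasi-likelihood test over 26596 genes, 0 of the 36 passed both limits taken from the study's methods (adjusted p under 0.1, and 1 or more on the log2 scale in either direction), where 0.0301% of all genes tested passed lower and 0.0338% higher. By DESeq2, 2 of the 36 passed both lower, Col8a1 and Col22a1, and 0 higher, against 0.557% and 1.62% of the genes with an adjusted p. The study's text also names a false discovery rate of 0.01, at which edgeR called 0 genes of the whole table with that fold limit. DESeq2 then called 73 lower and 146 higher of the 21896 genes with an adjusted p, with Col8a1 and Col22a1 among the lower. At the limit on the adjusted p alone, 1 of 36 was lower, Col24a1, and 0 were higher, against 0.0526% and 0.0376% of all genes. At an unadjusted p under 0.05, 8 were lower and 3 higher, against 4.70% and 5.90% of all genes. DESeq2's Wald test called 6 lower and 1 higher at an adjusted p under 0.1, where it called 1.73% of the genes with an adjusted p lower and 2.61% higher. The 6 were Col1a1, Col1a2, Col24a1, Col8a1, Col22a1 and Col13a1, and the 1 was Col5a3.

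In 9 of the 36 genes all 3 mutant libraries lay below all 3 controls, against 8.21% of all genes tested, and in 2 genes they lay above, against 6.81%. The 9 were Col1a1, Col1a2, Col5a2, Col24a1, Col8a1, Col8a2, Col18a1, Col22a1 and Col13a1, and the 2 were Col5a3 and Col7a1. The median log2 fold change was -0.16 over the 36 genes, 22 of them below 0 and 14 above, and 0.01 over all genes tested. The count of genes apart rests on the libraries kept: without E434 it was 10 lower and 13 higher, against 15.2% and 14.1% of all genes. All 36 genes passed the filter of at least 10 counts summed over the libraries, with sums from 110 counts (Col4a3) to 2549466 (Col1a1).

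**Figure D2:**
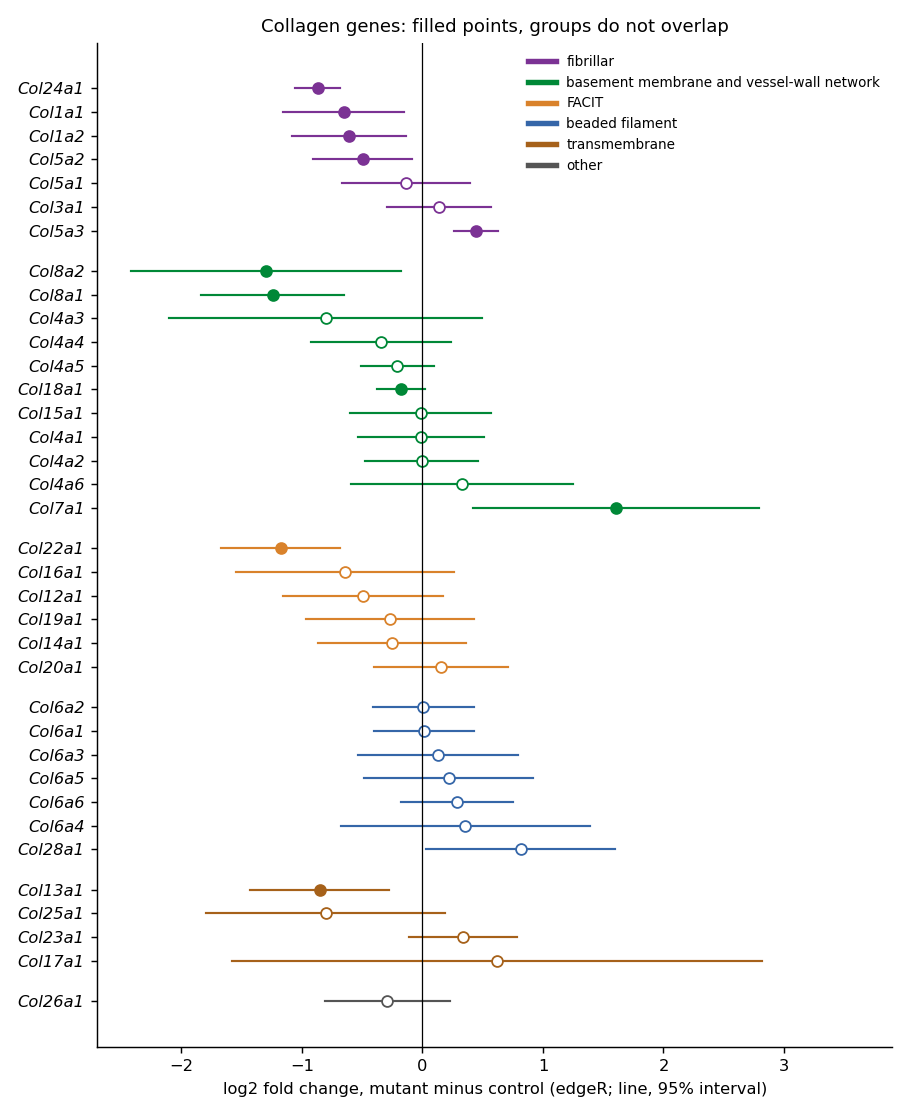
Log2 fold change of the 36 collagen genes, mutant minus control, from edgeR with its 95% interval, grouped by structural class; filled points are genes whose 3 mutant libraries lie wholly below or above the 3 controls. Filled points on the left include Col24a1 (-0.87), Col8a1 (-1.24) and Col22a1 (-1.18), filled points on the right are Col5a3 (0.45) and Col7a1 (1.61), and the type VI chains sit near 0.

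The fibrillar class carried most of the collagen RNA. Per length, in fragments per 1000000 and per kb of effective length from the RSEM files, Col3a1 (2003 to 2265 in the controls), Col1a1 (1593 to 2414) and Col1a2 (1441 to 2063) stood at the top, and their control ranges overlapped each other. The next gene, Col6a1, had 199.6 to 273.7, with no overlap with Col1a2. Further down, most neighbors could not be ordered: 29 of the 35 adjacent pairs in the ranking overlapped in their control ranges. The lowest were Col4a3 (0.0481 to 0.0975) and Col6a4 (0.0433 to 0.173). Of the summed CPM of all 36 genes, Col1a1, Col1a2 and Col3a1 together made up 74.0 to 75.6% in the controls and 71.1 to 73.0% in the mutants.

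Type I collagen, the main fiber of bone and tendon, is a trimer of Col1a1 and Col1a2 chains. Col1a1 had 10648, 14930 and 9796 CPM in controls against 7535, 7786 and 7152 CPM in mutants. Its log2 fold change was -0.65 (SE 0.210; adjusted p = 0.407 by edgeR and 0.0189 by DESeq2). Every mutant library lay below every control, and the 3 mutants were closer to each other than the controls were, with E434 the highest. Col1a2 had 8366, 11453 and 7949 CPM in controls against 5828, 6608 and 5727 CPM in mutants, a log2 fold change of -0.61 (SE 0.198; adjusted p = 0.409 by edgeR and 0.0239 by DESeq2). Its groups did not overlap either.

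Type III collagen, which is abundant in skin, vessels and loose connective tissue and forms fibers with type I, overlapped between the groups. Col3a1 had 7923, 8600 and 7673 CPM in controls against 8047, 10535 and 8005 CPM in mutants. The log2 fold change was 0.14 (95% interval -0.29 to 0.57, adjusted p = 0.815 by edgeR), and E433 was the highest library. Within each library, the ratio of Col3a1 to Col1a1 reads per exon length was 0.498, 0.385 and 0.524 in the controls and 0.714, 0.905 and 0.748 in the mutants. All 3 mutants thus had the higher ratio, by 0.76 on the log2 scale (SD 0.237 and 0.181, n = 3 per group; exact permutation p = 0.1, 2-sided, the smallest that 3 against 3 allows, and 0.35 after adjustment over the 7 ratios set for the test). Ratios use the union of exons of each gene as its length, which can overstate a length, so their absolute size is uncertain while the difference between groups is not affected. With the effective lengths of the RSEM files the difference was 0.71 on the log2 scale.

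The type V chains, which join type I and III fibers and limit their width, differed from each other in direction. Col5a1, a chain of nearly every type V trimer, had 1033, 1502 and 952 CPM in controls against 966, 1286 and 914 CPM in mutants (log2 fold change -0.14, 95% interval -0.67 to 0.39). The groups overlapped. Col5a2, its usual partner, had 1432, 1656 and 1383 against 936, 1304 and 928 CPM, a log2 fold change of -0.50 (SE 0.171; adjusted p = 0.421 by edgeR and 0.111 by DESeq2). Its mutant libraries all lay below the controls, although E433 at 1304 CPM came close to the lowest control. Col5a3, a further chain with a narrower range of tissues, had 155, 160 and 143 CPM in controls against 212, 211 and 202 CPM in mutants. It was the 1 collagen gene that DESeq2 called higher (adjusted p = 0.000269). By edgeR its log2 fold change was 0.45 (SE 0.0772, adjusted p = 0.201). The ratio of Col5a1 to Col5a2 was 0.808, 1.02 and 0.771 in the controls and 1.16, 1.11 and 1.10 in the mutants, without overlap (difference 0.38 on the log2 scale, exact permutation p = 0.1, 2-sided).

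Col5a2 and Col3a1 are neighbors on chromosome 1 on opposite strands, with 24.6 kb between the genes as annotated. Their ratio, chosen after the values were seen, was 0.185, 0.197 and 0.185 in the controls and 0.119, 0.127 and 0.119 in the mutants. The ratio was lower in each mutant library, 1.56-fold on average, and within each group it varied little (SD 0.0537 and 0.0531 on the log2 scale), also between E434 or E433 and the close pairs.

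Col24a1, a minor fibrillar chain known from bone, was the 1 collagen gene that edgeR called. It had 63.1, 67.9 and 60.6 CPM in controls against 34.0, 36.6 and 34.4 CPM in mutants. The level was 1.83-fold lower (log2 fold change -0.87, SE 0.0781, 95% interval -1.06 to -0.68), with an adjusted p of 0.0775 by edgeR and 3.90e-13 by DESeq2. The groups stood far apart relative to their spread. The cartilage-rich libraries E434 and E433 were each within 1.1-fold of the mean of the others of their group. The edgeR call held without E434 (adjusted p = 0.0936) or E433 (0.00648), but was lost when any of the other 4 libraries was left out (0.396 to 0.471). In those 4 fits 0 genes of the whole table passed an adjusted p of 0.1. The ratio of Col24a1 to Col1a1, also chosen after the values were seen, was 0.00511, 0.00392 and 0.00533 in the controls and 0.00388, 0.00405 and 0.00415 in the mutants, so the groups overlapped at control E434.

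**Figure D3:**
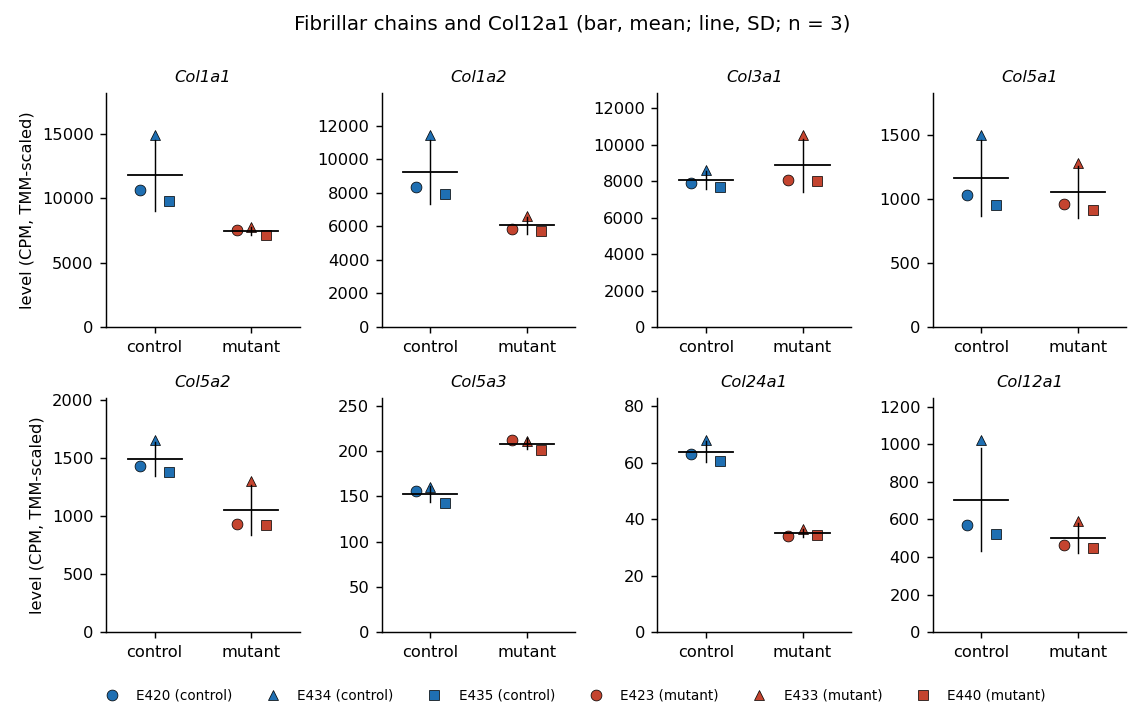
TMM-scaled CPM of the 7 fibrillar chains and of Col12a1, a fiber-associated collagen, in each control (blue) and mutant (red) library; bars are means, vertical lines SD, n = 3 per group, and triangles mark the cartilage-rich embryos E434 and E433. Col1a1, Col1a2, Col5a2 and Col24a1 are lower in each mutant library, Col5a3 is higher in each, and Col3a1 and Col5a1 overlap.

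Most markers of bone cells were also lower in the mutants, and within the mutants their sum had a different order from the type I and XXIV chains. Of 10 osteoblast and osteocyte markers, 9 were lower in each mutant than in each control, and their summed level was 1653, 1709 and 1722 CPM in controls against 852, 349 and 843 CPM in mutants. None of the 10 was at 0 in any library. Mutant E433 had the lowest marker sum, and its Col1a1, Col1a2 and Col24a1 levels were the highest of the 3 mutants. The markers did not all share 1 order. Runx2 was highest in E433, with 14.7, 19.4 and 15.9 CPM in the mutants, while the other markers were lowest there. The 8 tendon and fibroblast markers summed to 1668 to 1818 CPM in controls against 1505 to 1809 CPM in mutants, with 4 of them lower in each mutant (Scx, Tnmd, Mkx and Lum) and 2 higher (Dcn and Dpt). The part of these cells in the collagen levels was not tested.

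Within type I collagen the ratio of the chains overlapped between the groups. The ratio of Col1a1 to Col1a2 was 2.41, 2.47 and 2.33 in the controls and 2.45, 2.23 and 2.36 in the mutants (difference -0.03 on the log2 scale, exact permutation p = 0.6, 2-sided). The groups also overlapped for type IV, where Col4a1 to Col4a2 gave 1.71, 1.76 and 1.68 against 1.68, 1.79 and 1.68 (p = 1 by the exact test). For type VI, Col6a1 to Col6a2 gave 1.95, 1.94 and 1.99 against 1.95, 1.98 and 1.96 (p = 0.8 by the exact test). These 3 ratios had a spread within groups of at most 0.0676 on the log2 scale. Col6a3 to Col6a1 varied more, from 0.217 to 0.310 in the controls and from 0.279 to 0.286 in the mutants.

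**Figure D4:**
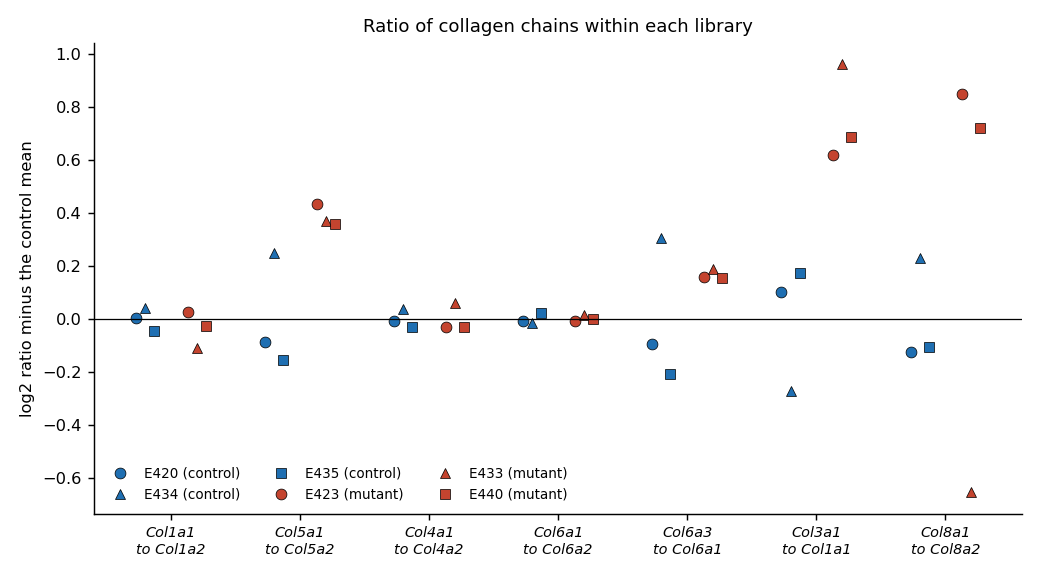
Log2 ratio of paired collagen chains within each library, minus the mean of the 3 controls; symbols are embryos, blue controls and red mutants. Col1a1 to Col1a2, Col4a1 to Col4a2 and Col6a1 to Col6a2 lie near 0 in all 6 libraries, Col5a1 to Col5a2 and Col3a1 to Col1a1 are higher in each mutant, and Col8a1 to Col8a2 splits E433 from the other mutants.

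The type IV chains, the network of every basement membrane, showed no difference that stood out from the spread. Col4a1 had 738, 1171 and 688 CPM in controls against 841, 941 and 797 CPM in mutants (log2 fold change -0.01, 95% interval -0.53 to 0.51). Its head-to-head neighbor Col4a2, whose transcription start lies 21 bases away, had 383, 589 and 363 against 444, 466 and 420 CPM (-0.00, 95% interval -0.47 to 0.46). E434 was the highest library for both. Without E434 and E433, both were higher in the mutants by 0.20 and 0.22 on the log2 scale (adjusted p = 0.000918 and 0.000578 by edgeR), in a fit on 2 close pairs in which 18.3% of all genes were called lower and 19.4% higher at an adjusted p under 0.1.

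The other type IV chains have narrower ranges, among them kidney, lung and smooth muscle. Col4a5 had 37.4, 30.6 and 34.4 CPM in controls against 31.4, 25.4 and 31.8 CPM in mutants (log2 fold change -0.21, 95% interval -0.51 to 0.09). Col4a6, which starts 1309 bases from it on the other strand of chromosome X, had 6.92, 2.76 and 6.04 against 7.94, 4.36 and 7.43 CPM (0.33, 95% interval -0.59 to 1.25). Both were lowest in E434 and E433 within their groups, unlike Col4a1 and Col4a2. Col4a3 stayed under 0.8 CPM in each library, with 0.483, 0.728 and 0.371 against 0.192, 0.162 and 0.542 CPM, and Col4a4, which starts 72 bases from it, had 2.06, 2.91 and 2.25 against 1.52, 1.74 and 2.43 CPM. Both overlapped between the groups (95% intervals -2.10 to 0.50 and -0.93 to 0.24).

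Type VIII collagen, a short-chain network known from vessel walls and from the cornea, was lower in each mutant library for both of its chains. Col8a1 had 48.9, 88.4 and 48.4 CPM in controls against 25.8, 28.1 and 24.5 CPM in mutants. The log2 fold change was -1.24 (SE 0.248; adjusted p = 0.247 by edgeR and 0.000159 by DESeq2), and the groups did not overlap. Col8a2 had 176, 250 and 172 CPM in controls against 47.5, 147 and 49.3 CPM in mutants, a log2 fold change of -1.30 (SE 0.467; adjusted p = 0.429 by edgeR and 0.332 by DESeq2). Its groups did not overlap, but mutant E433 had 3.04 times the mean of the other mutants and lay near the lowest control. For Col8a1 the same library had 1.12 times the others. The ratio of Col8a1 to Col8a2 was accordingly 0.159, 0.203 and 0.161 in the controls and 0.312, 0.110 and 0.285 in the mutants, with overlap (exact permutation p = 0.6, 2-sided). Without E433, edgeR called both lower (log2 fold changes -1.30 and -2.04, adjusted p = 0.0696 and 0.0092), in a fit that called 1598 of 25844 genes lower, and without E434 and E433 they were at -0.95 and -1.85. The summed levels of endothelial and mural markers, which mark vessel walls, overlapped between the groups. They were 480 to 632 against 454 to 573 CPM for 9 endothelial genes and 366 to 560 against 353 to 478 CPM for 6 mural genes, with none at 0. Of these genes only Emcn was lower in each mutant, at 23.4, 26.0 and 22.9 against 18.0, 20.7 and 17.5 CPM (log2 fold change -0.36, adjusted p = 0.389 by edgeR). The part of vessel cells in the type VIII levels was not tested.

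Col7a1, the chain of the anchoring fibrils that fasten the epidermis to the dermis, had the largest positive fold change among the 36. It had 27.4, 7.65 and 26.3 CPM in controls against 72.7, 40.6 and 73.6 CPM in mutants, without overlap (log2 fold change 1.61, SE 0.496; adjusted p = 0.398 by edgeR and 0.127 by DESeq2). Col17a1, a transmembrane collagen of the hemidesmosomes of the epidermis, had 73.6, 4.99 and 69.9 against 99.3, 29.0 and 99.2 CPM (0.62, SE 0.916), with overlap. Both were lowest in the cartilage-rich library of their group, and so was the keratinocyte sum, at 4843, 20.5 and 5278 CPM in controls against 24227, 2855 and 23994 CPM in mutants. When the fit held the keratinocyte markers as a covariate, Col7a1 had a log2 fold change of 1.03 (adjusted p = 0.0455) and Col17a1 of -0.39 (adjusted p = 0.450).

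Of the remaining basement membrane chains, Col15a1 had 127 to 233 CPM in controls against 148 to 184 CPM in mutants (log2 fold change -0.01). Col18a1, the source of endostatin, was lower in each mutant library, at 193 to 217 CPM against 220 to 242 CPM. The difference was small, at -0.18 on the log2 scale (95% interval -0.38 to 0.02).

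**Figure D5:**
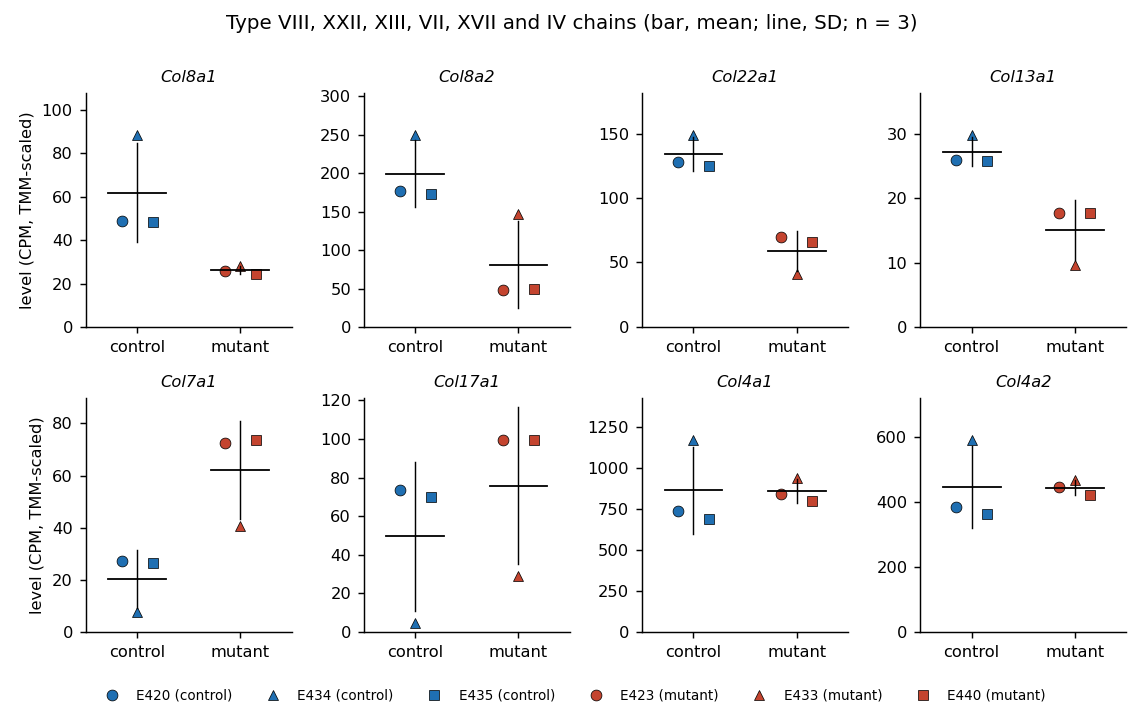
TMM-scaled CPM of Col8a1, Col8a2, Col22a1, Col13a1, Col7a1, Col17a1, Col4a1 and Col4a2 in each control (blue) and mutant (red) library; bars are means, vertical lines SD, n = 3 per group, and triangles mark E434 and E433. The first 4 genes are lower in each mutant, Col7a1 is higher in each, Col17a1 drops in both cartilage-rich libraries, and the type IV chains overlap.

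Among the FACIT collagens, Col22a1, known from the junction of muscle and tendon, differed most. It had 128, 149 and 125 CPM in controls against 70.0, 41.3 and 66.3 CPM in mutants. The log2 fold change was -1.18 (SE 0.205; adjusted p = 0.201 by edgeR and 1.18e-05 by DESeq2), the groups did not overlap, and E433 was the lowest of all. Without E433 the edgeR value was -0.97 (adjusted p = 0.0114). The skeletal muscle markers summed to 14039 to 23517 CPM in controls against 18427 to 32129 CPM in mutants, so they overlapped and leaned the other way. Of the 8 tendon and fibroblast markers, 4 were lower in each mutant and 2 higher (Dcn and Dpt), and their sums overlapped. The one with the smallest edgeR p, Mkx, had a log2 fold change of -1.38 (adjusted p = 0.244 by edgeR and 0.000106 by DESeq2), with no overlap of the groups. The part of muscle and tendon cells in the Col22a1 level was not tested.

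The other FACIT genes overlapped between the groups. Col12a1 and Col14a1, which bind to fibers in tendon and other dense tissue, had log2 fold changes of -0.49 and -0.25, and Col16a1 had -0.64. All 3 were highest in E434 among the controls and in E433 among the mutants, and Col16a1 reached 765 and 522 CPM there, against 413 to 421 and 246 to 257 CPM in the close pairs. Without E434 the 3 values were -0.13, -0.02 and -0.29, and without E433 they were -0.63, -0.52 and -1.08. Col19a1 ran from 3.92 to 7.88 CPM over the 6 libraries (log2 fold change -0.27), and Col20a1 was of a like level (log2 fold change 0.16).

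Type VI collagen, which forms beaded filaments around most cells of connective tissue, overlapped between the groups in its 3 main chains. Col6a1 had 879, 1180 and 859 CPM in controls against 917, 1148 and 879 CPM in mutants (log2 fold change 0.01, 95% interval -0.41 to 0.43). Col6a2 had 858, 1156 and 820 against 894, 1102 and 854 CPM (0.01, 95% interval -0.41 to 0.43). Col6a3 had 563, 998 and 509 against 701, 897 and 670 CPM (0.13, 95% interval -0.53 to 0.80), with overlap.

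The alternative type VI chains lie in a row on chromosome 9. Col6a6 had 63.6, 97.0 and 63.3 CPM in controls against 84.2, 106 and 83.5 CPM in mutants (log2 fold change 0.29, 95% interval -0.18 to 0.75). Its neighbors Col6a5 (1.13 to 2.43 CPM over the 6 libraries) and Col6a4 (0.268 to 0.789 CPM) had low levels. Both overlapped between the groups (95% intervals -0.48 to 0.92 and -0.68 to 1.39). Col28a1, a related chain known from peripheral nerve, had 1.15, 2.38 and 1.38 CPM in controls against 3.58, 2.23 and 2.84 CPM in mutants (0.81, SE 0.327, adjusted p = 0.461 by edgeR). Its groups overlapped through E434 and E433. Of the 7 Schwann cell markers, 2 were higher in each mutant, with sums of 333 to 389 against 361 to 372 CPM. All 7 genes of the beaded-filament class had a log2 fold change above 0, with a median of 0.22, but 0 of them had groups that did not overlap.

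The transmembrane collagens differed in direction. Col13a1, found at cell contacts and at the nerve-muscle junction, had 26.0, 29.8 and 25.8 CPM in controls against 17.7, 9.70 and 17.8 CPM in mutants, without overlap (log2 fold change -0.85, SE 0.239; adjusted p = 0.380 by edgeR and 0.0248 by DESeq2). Col25a1, needed for motor axons to reach muscle, had 23.0, 35.5 and 20.8 against 9.5, 25.2 and 10.8 CPM (-0.80, SE 0.414). It overlapped only through E433, where Col13a1 was lowest instead. Col23a1 had a log2 fold change of 0.34, with 39.0 to 61.6 against 56.0 to 61.2 CPM. Col26a1, which belongs to none of the classes, had 116 to 129 CPM in controls against 81.6 to 139 CPM in mutants.

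Summed by class, the fibrillar genes were lower in each mutant than in each control. Their sum was 29620, 38370 and 27957 CPM in controls against 23557, 27766 and 22962 CPM in mutants, a difference of -0.36 on the log2 scale (SD 0.243 and 0.149, n = 3 per group; exact permutation p = 0.1, 2-sided, the smallest possible). The lowest control and the highest mutant, E433, lay close to each other. The sum over all 36 genes was -0.31 (exact permutation p = 0.2), the FACIT sum -0.48 (p = 0.3 by the exact test) and the basement membrane sum -0.09 (p = 0.9 by the exact test), and these overlapped. Without E434 the sums were -0.16 for all 36 genes, -0.22 for the fibrillar and -0.23 for the FACIT genes, and without E433 they were -0.41, -0.45 and -0.68. The beaded-filament and transmembrane sums differed by 0.07 and 0.11 (exact permutation p = 0.7 and 0.6), and the transmembrane sum ran from 0.01 to 0.33 without single libraries, the 0.33 without E433. As a share of all counts in a library, the 36 genes made up 3.52 to 4.57% in the controls and 2.76 to 3.62% in the mutants.

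Without E434 and E433, leaving the close pairs, edgeR called 15 of the 36 collagen genes lower and 11 higher at an adjusted p under 0.1, in a setting where 18.3% and 19.4% of all genes were called. The fibrillar calls were the same as the groups that did not overlap with all 6 libraries: Col1a1 (-0.47), Col1a2 (-0.50), Col5a2 (-0.59) and Col24a1 (-0.85) lower and Col5a3 (0.47) higher. Col3a1 was at 0.04 (adjusted p = 0.390). Genes called in that setting although their groups overlapped with 6 libraries included Col16a1 (-0.73), Col25a1 (-1.11), Col26a1 (-0.64), Col23a1 (0.62), Col28a1 (1.33) and Col6a3 (0.36). This setting rests on 2 embryos per group that are nearly alike, so its p-values measure only the spread within those pairs. The study's methods state that littermates were compared, but which of the 6 embryos shared a litter is not given in the sources used here.

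Proteins that work with these collagens were compared in the same way. Of 16 basement membrane partners (laminins, nidogens, perlecan and others), 1 was lower in each mutant and 2 were higher (8.21% and 6.81% of all genes were), and their median log2 fold change was 0.15. Sparc, a collagen-binding protein of bone matrix, had 3653, 5134 and 3674 CPM in controls against 2888, 3152 and 2862 CPM in mutants (log2 fold change -0.49, adjusted p = 0.435 by edgeR). Lamc3 was higher, from 0.331 to 1.08 CPM in controls to 1.30 to 3.70 CPM in mutants (1.87, adjusted p = 0.389 by edgeR and 0.0194 by DESeq2). Lama5 was at 49.8 to 57.3 against 57.6 to 68.9 CPM.

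Of 15 fibril and microfibril partners, 1 was lower and 2 were higher in each mutant, with a median of -0.18. Fbln5, an organizer of elastic fibers, had 132, 161 and 137 CPM in controls against 74.0, 110 and 72.8 CPM in mutants (-0.74, adjusted p = 0.347 by edgeR and 0.0129 by DESeq2). Tnxb, which is bound to collagen fibers in skin and loose tissue, had 75.0, 101 and 71.1 against 129, 118 and 121 CPM (0.57, adjusted p = 0.347 by edgeR and 0.0237 by DESeq2). Mfap5, a microfibril protein, was at 72.0 to 75.4 against 82.6 to 99.0 CPM. Of 10 collagen receptors, 2 were lower in each mutant and 0 higher, with a median of -0.27. Both were integrin chains. Itga11, which binds type I collagen on fibroblasts and osteoblasts, had 19.5, 33.3 and 20.2 CPM in controls against 13.5, 17.4 and 11.9 CPM in mutants (-0.77, adjusted p = 0.411 by edgeR and 0.0841 by DESeq2), and Itga2 was at 16.1 to 20.0 against 13.3 to 15.7 CPM. By edgeR 0 of these 41 genes passed both limits, and at an unadjusted p under 0.05 there were 5 lower and 4 higher, where 4.70% and 5.90% of all genes were. By DESeq2, Lamc3 passed both limits.

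For contrast, the 8 cartilage collagens that were left out of the group overlapped between the groups in every case, although their median log2 fold change was -1.34. Their sum was 2145, 26190 and 2044 CPM in controls against 758, 9671 and 735 CPM in mutants. On the log2 scale, that sum differed more between E434 and the other controls than between the groups. Both patterns occurred among the 36 genes. For Col24a1, Col5a3, Col1a1 and Col22a1 the difference between the groups was the larger. For others, among them Col4a1, Col6a3, Col12a1, Col16a1, Col17a1 and Col7a1, the difference between E434 and the other controls was the larger.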

How the data were processed

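The authors made stranded mRNA libraries, aligned the reads with HISAT2 2.1.0 to GRCm38 and deposited raw counts per gene from featureCounts 1.6.0 (exons, primary alignments, each end counted on its own, strand not used), so overlapping genes such as Col4a1 and Col4a2 may share reads. The authors also deposited expected counts and effective lengths per gene from STAR 2.7.6 and RSEM 1.2.31. The tables of the authors' DESeq2 1.26.0 comparisons (fold changes and p-values), with 12 per-sample columns, were not used. TMM scaling and the quasi-likelihood test of edgeR 4.0.16 (R 4.3.3, Benjamini-Hochberg adjustment) were applied to the 26596 genes with 10 or more counts in sum. DESeq2 1.42.0 was an alternative. Sums and ratios were compared by exact permutation tests, 2-sided. RSEM values were rounded for tests. The steps were tested on simulated data. Members, classes and lists were chosen with earlier results of these data known. Genes were described in full when called by either tool, in types I, IV, V or VI, or among the 3 largest changes each way with at least 100 counts, and partner genes by smallest p-value (at most 4 per list). The other alternatives were DESeq2's size factors, filterByExpr, no filter, robust empirical Bayes, other limits, no TMM factor, chondrocyte or keratinocyte covariates and leaving out libraries. Summing the close libraries was chosen after seeing the data. The study's methods state that littermates were compared, but not which embryos shared a litter, so no litter term could be fitted and p-values measure the spread between these samples. Intervals cover that spread, and depth was at least 37853988 counts.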

Additional observations from a re-analysis of the deposited data

How the results depend on the processing

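The count of collagen genes past both limits (0 lower, 0 higher) was 2 lower with DESeq2's Wald test, 3 lower and 1 higher with the chondrocyte covariate, 1 higher with the keratinocyte covariate, 2 lower and 2 higher without E434 and E433, and 1 lower with no limit on the fold change. The shares of all genes past both limits were then 0.557% lower with the Wald test, 0.282% lower and 0.707% higher with the chondrocyte covariate, 0.132% higher with the keratinocyte covariate, 2.59% and 5.66% without E434 and E433, and 1.37% lower and 2.84% higher without E433. Leaving out single libraries gave 0 to 3 lower and 0 higher, the 3 without E433 (Col8a1 and Col8a2 among the genes that edgeR then called). For the partner genes the counts were 1 higher with DESeq2's Wald test, 2 higher without E434 and E433, and 0 to 1 lower and 0 to 2 higher without single libraries (1 lower and 2 higher without E433). Collagen genes whose groups did not overlap numbered 16 lower and 15 higher without E434 and E433 (30.7% and 30.3% of all genes), and 9 to 15 lower (15 without E433, against 23.0% of all genes) and 2 to 13 higher (13 without E434, against 14.1%) without single libraries.

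Some directions turned. Without E434 and E433, the basement membrane sum was 0.0447, and the log2 ratios of Col1a1 to Col1a2, Col4a1 to Col4a2 and Col6a1 to Col6a2 were 0.0207, -0.0116 and -0.0107; with RSEM counts the Col4a1 to Col4a2 ratio was -0.0240. Without single libraries, the basement membrane sum ran from -0.206 to 0.111, the beaded-filament sum from -0.0505 to 0.259, and these 3 ratios from -0.0654 to 0.00148, -0.0303 to 0.0189 and -0.0042 to 0.0142. Log2 fold changes without E434 and E433 were 0.204 for Col4a1, 0.216 for Col4a2, 0.228 for Col15a1 and -0.0260 for Col6a4. With the chondrocyte covariate they were 0.0573 for Col5a1, 0.191 for Col4a1, 0.166 for Col4a2 and 0.230 for Col15a1. With the keratinocyte covariate they were 0.142 for Col5a1, 0.307 for Col4a1, 0.277 for Col4a2, 0.362 for Col15a1, 0.0461 for Col14a1, 0.0938 for Col19a1, -0.130 for Col4a6 and -0.386 for Col17a1. Col4a2 was 0.00106 with DESeq2's size factors and 0.00105 with its Wald test, and with the close libraries summed, a setting chosen after seeing the data, Col6a1 and Col6a2 were -0.00659 and -0.0181. Without single libraries, Col3a1 ran from -0.00246 to 0.204, Col5a1 from -0.303 to 0.0890, Col4a1 from -0.155 to 0.272, Col4a2 from -0.137 to 0.251, Col15a1 from -0.177 to 0.320, Col19a1 from -0.524 to 0.0232, Col6a1 from -0.111 to 0.176, Col6a2 from -0.108 to 0.179, Col6a3 from -0.0514 to 0.496 and Col6a5 from -0.0240 to 0.527. The causes were not tested. Summing the close libraries left 0 genes of the whole table past the limit on the adjusted p, Col24a1 included. Among low genes (Col4a3, Col6a4) depth limits what can be seen. No paired analysis was possible because, although littermates were compared per the methods, no source used here assigns embryos to litters.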
